A study of Mus musculus with 6 samples.

Results

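The adult globin genes and 3 further genes of the red blood cell were followed in mouse dorsal root ganglia after kidney ischemia-reperfusion (I/R), 7 genes of the 57180 in the deposited table. They were chosen by gene symbol: the alpha globin genes Hba-a1 and Hba-a2, the beta globin genes Hbb-bs and Hbb-bt, and Alas2, Bpgm and Slc4a1. All 7 were found, and all 7 passed the filter on low counts. Dorsal root ganglia hold the cell bodies of sensory neurons beside the spinal cord, and those of thoracic level T8 to lumbar level L2 were sequenced from 6 wild-type mice, 3 per group, with 1 library per mouse. In the I/R group the vessels of the left kidney were clamped for 28 min and released, the right kidney was removed, and the ganglia were taken 24 h after surgery. Sham mice are described as having had the same procedures without the clamp, at the same time point, and removal of their right kidney is not stated separately. Both groups received Zoletil anesthesia, and each library held 19092650 to 22010227 expected counts (reads estimated per gene). The labels give no strain, sex or age, and do not say whether blood was washed out of the animals before dissection.

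Hemoglobin, the oxygen carrier of red cells, is built from a pair of alpha chains and a pair of beta chains, each holding a heme group. Erythroid precursors in the marrow fill up with globin mRNA, and young red cells in the circulation (reticulocytes) still carry it after the nucleus is lost. Alas2 encodes the erythroid form of 5-aminolevulinate synthase, which starts heme synthesis. Slc4a1 encodes band 3, the anion exchanger of the red cell membrane, which the kidney's collecting duct also makes. Bpgm encodes bisphosphoglycerate mutase, which makes the 2,3-bisphosphoglycerate (2,3-BPG) that lowers the oxygen affinity of hemoglobin. Globin transcripts in a solid tissue are commonly read as a measure of the blood it holds, although some neurons and glia have been described to make globins too.

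The coding sequences of the copies within each globin pair are nearly the same, so many reads could come from either copy. In the GENCODE M21 transcripts, whose lengths for the globin genes are those of the deposited table, the coding sequences of Hba-a1 and Hba-a2 are 429 bases long and differ at 1 base, C381T, counted from 1 at the A of the start codon. Those of Hbb-bs and Hbb-bt are 444 bases long and also differ at 1 base, C417T. The stretches around these bases are given 5′ to 3′, with the base that differs in capitals.
Hba-a1, coding bases 351 to 411: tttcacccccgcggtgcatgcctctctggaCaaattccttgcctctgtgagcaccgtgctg
Hba-a2, coding bases 351 to 411: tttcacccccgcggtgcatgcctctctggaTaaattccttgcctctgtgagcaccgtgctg
Hbb-bs, coding bases 387 to 441: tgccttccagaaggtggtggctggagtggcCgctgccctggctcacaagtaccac
Hbb-bt, coding bases 387 to 441: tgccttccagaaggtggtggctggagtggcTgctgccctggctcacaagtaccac

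Over whole transcripts fewer stretches were shared. Of the stretches of 100 bases in the Hba-a2 transcript, 74.5% occur unchanged in that of Hba-a1, and 56.5% the other way round. Of those in the Hbb-bt transcript 54.8% occur unchanged in that of Hbb-bs, and 62.6% the other way round, so the remaining stretches tell the copies apart. The deposited counts carry the mark of reads shared between copies. In every library the 4 globin genes had fractional counts, while the alpha pair and the beta pair each summed to a whole number in 6 of 6 libraries, within 0.01 of a read. In sham 1, for example, Hba-a1 had 793.17 and Hba-a2 had 1169.83 expected counts, 1963 in all. The sum of a pair is therefore free of the division of reads, and the level of a single copy is an estimate.

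The summed alpha globin genes measured 96.4, 103 and 143 CPM in the sham libraries, against 43.3, 32.9 and 28.0 CPM in the I/R libraries. CPM are counts scaled to a common effective library size, and values are given in the order of libraries 1, 2 and 3 throughout. The 3 I/R values lay below the 3 sham values, and the log2 fold change was -1.72 ± 0.19 (SE, adjusted p = 0.0018 in edgeR's quasi-likelihood test over all genes), 3.29-fold lower in I/R. The summed beta globin genes stood at 82.4, 88.5 and 125 CPM in the sham libraries, against 41.9, 29.5 and 24.0 CPM in the I/R libraries. Here too the groups did not overlap, and the log2 fold change was -1.63 ± 0.21 (adjusted p = 0.0052), 3.10-fold lower in I/R. Both calls ended with the skeletal muscle level as covariate (adjusted p = 0.0944 for the alpha and 0.176 for the beta pair) and with sham 2 as the only sham library (0.0513 and 0.116), at log2 fold changes of -1.68 and -1.62 and of -1.59 and -1.50. Of all expected counts, the 4 genes took 0.0179%, 0.0190% and 0.0273% in the sham libraries, against 0.00853%, 0.00616% and 0.00517% in the I/R libraries, so they were a small share of every library. In bulk tissue, fewer cells of a type and less RNA per cell cannot be told apart.

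The globin copies followed their sums. Hba-a1 stood at 38.9, 42.3 and 51.7 CPM in the sham libraries, against 17.9, 12.5 and 12.8 CPM in the I/R libraries. Hba-a2 stood at 57.4, 60.6 and 91.6 CPM in the sham libraries, against 25.5, 20.4 and 15.2 CPM in the I/R libraries. Sham 3 was the highest library for both, and neither gene overlapped between the groups. Both alpha genes fell, with log2 fold changes of -1.62 ± 0.16 and -1.78 ± 0.22 (adjusted p = 0.0012 and 0.0033 in edgeR's test).

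Hbb-bs, the more abundant beta gene, stood at 66.7, 70.0 and 101 CPM in the sham libraries, against 35.9, 25.5 and 19.8 CPM in the I/R libraries. Hbb-bt stood at 15.7, 18.5 and 24.6 CPM in the sham libraries, against 5.98, 4.07 and 4.11 CPM in the I/R libraries. Within sham, library 3 was again the highest for both beta genes, and within I/R library 1 was. Both beta genes fell, Hbb-bs with a log2 fold change of -1.55 ± 0.22 (adjusted p = 0.0084) and Hbb-bt with -2.05 ± 0.21 (adjusted p = 0.0012). Leaving out I/R 2 ended the call of Hbb-bs (adjusted p = 0.0701) and of the summed beta pair (0.0547).

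Alas2 had 52.57, 70 and 55.06 expected counts in the sham libraries, against 28.35, 21 and 18 in the I/R libraries, which is 2.60, 3.50 and 2.83 CPM against 1.38, 1.02 and 0.821 CPM. Its groups did not overlap and it fell (log2 fold change -1.47 ± 0.26, edgeR adjusted p = 0.024). The call rested on few reads: it ended when any library but I/R 1 was left out (adjusted p 0.0696 to 0.13), while the log2 fold change stayed between -1.69 and -1.31 over the 6 fits that left out 1 library.

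Slc4a1, the band 3 gene, had 39, 65 and 46 counts in the sham libraries, against 28, 19 and 20 in the I/R libraries, or 1.92, 3.25 and 2.37 CPM against 1.38, 0.920 and 0.913 CPM. Its groups did not overlap, but with a log2 fold change of -1.23 ± 0.29 (95% interval -1.87 to -0.58) it did not pass the test over all genes (adjusted p = 0.096). It was called by DESeq2 (adjusted p = 0.0491) and not by limma-voom (0.117).

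Bpgm stood at 20.3, 20.4 and 24.2 CPM in the sham libraries, against 18.0, 18.4 and 16.1 CPM in the I/R libraries. These groups came close to each other without overlapping. The log2 fold change was -0.30 ± 0.12 (95% interval -0.57 to -0.04), and the gene did not pass the test (adjusted p = 0.39). This interval did not overlap that of any of the 4 globin genes, the nearest of which (Hbb-bs) ran from -2.04 to -1.05.

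**Figure D1:**
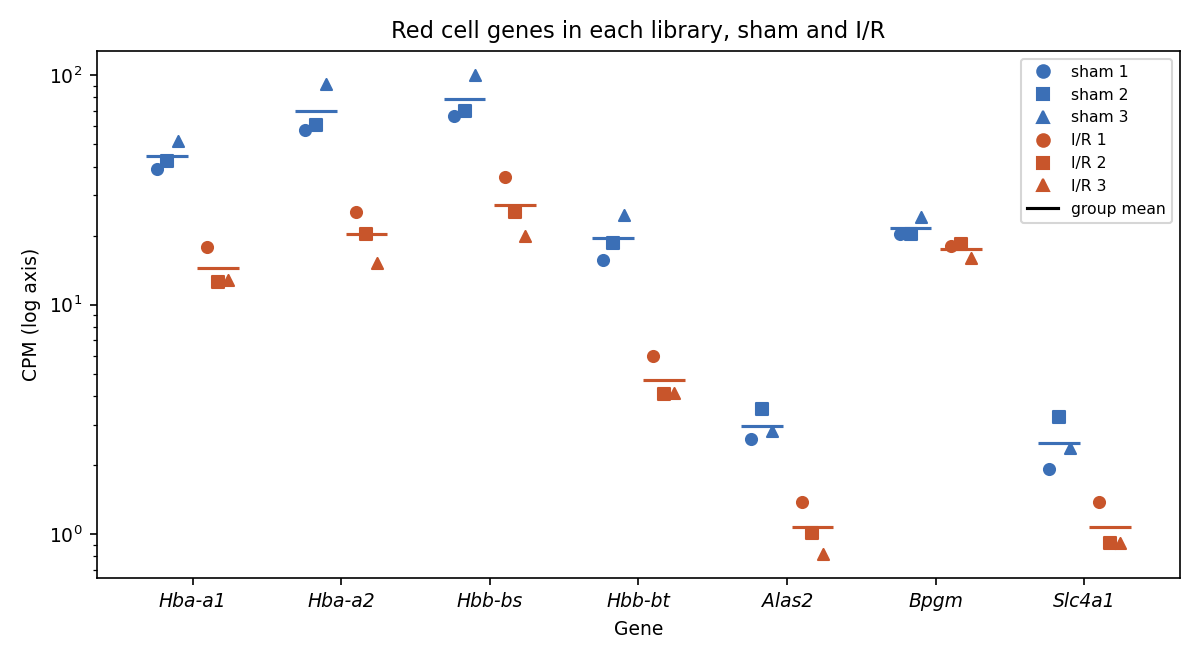
CPM of the 7 red cell genes (log axis) in each of the 6 libraries, sham in blue and I/R in orange, with a marker shape for the replicate number and a line at each group's mean. The globin genes, Alas2 and Slc4a1 lie lower in the 3 I/R libraries, and Bpgm lies at 16.1 to 18.4 CPM against 20.3 to 24.2 CPM in sham.

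In all, 5 of the 7 genes were called lower in I/R, among 0.428% of the 16346 tested genes called in that direction and 1.15% called in either. DESeq2 called 6 of the 7, Slc4a1 being the added one, against 0.875% of all tested genes called lower, and limma-voom called the same 5 as edgeR, against 0.385%. Without the filter 6 were called (background 0.805%), and 5 were with RLE size factors (0.434%), upper-quartile scaling (0.447%), a robust fit (0.538%) or a floor of 1 CPM in 3 libraries (0.452%). Only Hba-a1 and Hbb-bt of the 7 were called with the skeletal muscle level as covariate (0.0489%) and with sham 2 as the only sham library (0.0405%). With 1 library left out, 4 members were called without sham 1 (0.174%), sham 2 (0.51%), sham 3 (0.271%) or I/R 3 (0.144%), 5 without I/R 1 (0.319%) and 3 without I/R 2 (0.15%). All 7 had their 3 I/R values below their 3 sham values, a pattern that 7.83% of tested genes showed, while 9.23% showed the reverse. The median log2 fold change was -1.70 over the 4 globin genes and -1.23 over the other 3, beside 0.00013 over all tested genes. The members were named with earlier results of these data known, so the counts describe them and are no independent evidence of their direction.

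**Figure D2:**
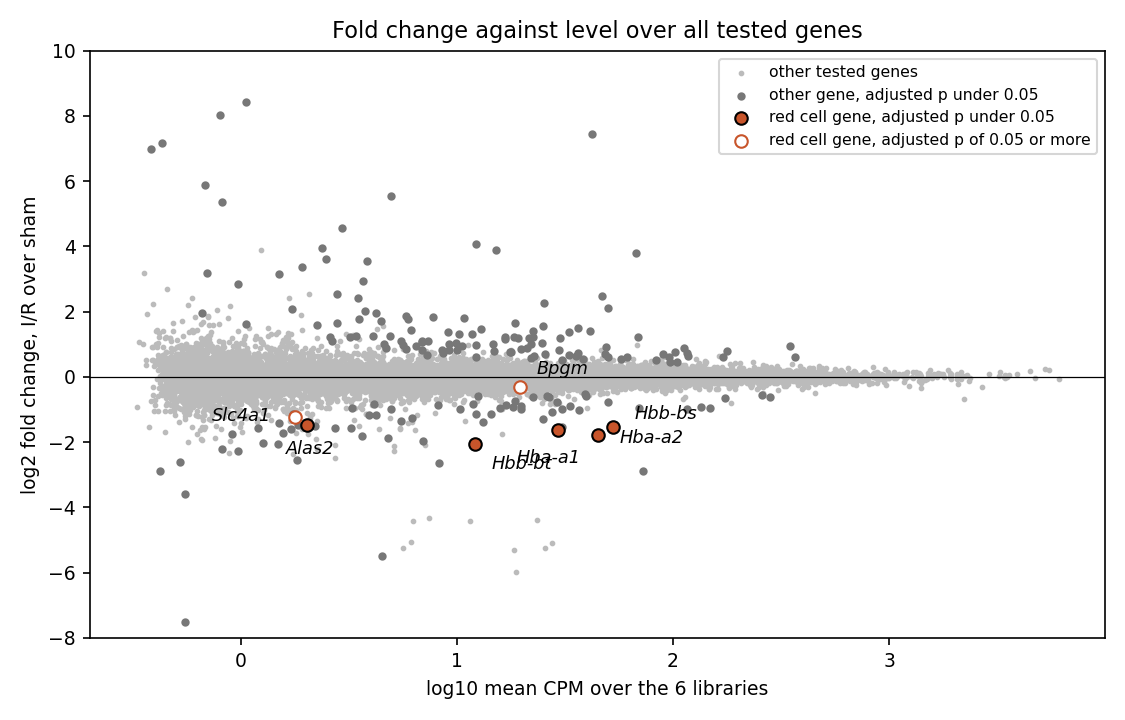
Log2 fold change (I/R over sham) against log10 mean CPM for all 16346 tested genes, with other called genes in dark grey and the red cell genes as large points, filled where the adjusted p was under 0.05. The 4 globin genes, between -2.05 and -1.55, lie well below 0, and Bpgm lies at -0.30.

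Set on a scale that allows genes to be compared, TPM (counts divided by the deposited gene length and scaled to a common total), the levels spanned more than 2 orders of magnitude. In sham ganglia Hba-a2 stood at 319 ± 75.2 TPM and Hbb-bs at 319 ± 64.3 TPM (SD, n = 3), which did not differ beyond their spread. Hba-a1 followed at 161 ± 18.98 TPM and Hbb-bt at 70.6 ± 14.2 TPM, each with all libraries below those of the gene before it. Bpgm stood at 24.8 ± 1.69 TPM, Alas2 at 3.72 ± 0.664 TPM and Slc4a1 at 1.41 ± 0.406 TPM. In I/R ganglia Hbb-bs stood at 110 ± 26.9 TPM, Hba-a2 at 93.6 ± 18.5, Hba-a1 at 52.7 ± 8.27, Bpgm at 20.2 ± 1.09, Hbb-bt at 17.2 ± 3.08, Alas2 at 1.35 ± 0.292 and Slc4a1 at 0.601 ± 0.118. Bpgm and Hbb-bt thus lay next to each other in I/R, with overlapping libraries (Hbb-bt reached 20.7 TPM in I/R 1, and Bpgm started at 19.6 TPM in I/R 3), whereas in sham every Hbb-bt value lay above every Bpgm value.

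Ratios of expected counts within a library do not depend on library size, and 6 of them were compared between the groups by an exact two-sided permutation test, whose smallest possible p with 3 against 3 libraries is 0.1. The beta pair stood to the alpha pair as 0.855, 0.860 and 0.873 in the sham libraries, against 0.967, 0.897 and 0.855 in the I/R libraries. These ranges overlapped (exact permutation p = 0.3, adjusted p = 0.45 over the 6 ratios), and the difference in mean log2 ratio was 0.07. With 1 library left out the difference ran from 0.02 to 0.11, beside log2 fold changes of -1.72 and -1.63 in the sums themselves.

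Within the beta pair the proportions were less even. Hbb-bt stood to Hbb-bs as 0.235, 0.264 and 0.244 in the sham libraries, against 0.167, 0.159 and 0.208 in the I/R libraries. The groups did not overlap, the mean log2 ratio differed by -0.49 (I/R minus sham), and the p reached the smallest the design allows (exact permutation p = 0.1, adjusted p = 0.3). Within the alpha pair, Hba-a2 stood to Hba-a1 as 1.47, 1.43 and 1.77 in sham and as 1.42, 1.62 and 1.19 in I/R, with overlap (exact permutation p = 0.4, adjusted p = 0.48). The ratios within a pair rest on the authors' division of shared reads.

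The other red cell genes were set against the summed globins. Alas2 stood to them as 0.0144, 0.0183 and 0.0105 in the sham libraries, against 0.0164, 0.0163 and 0.0158 in the I/R libraries, with overlap (exact permutation p = 0.6, adjusted p = 0.6). Slc4a1 stood to them as 0.0107, 0.0170 and 0.00881 in sham and as 0.0162, 0.0147 and 0.0176 in I/R, also with overlap (exact permutation p = 0.3, adjusted p = 0.45). Sham 2 was the highest sham library and sham 3 the lowest in both of these ratios. For Bpgm the groups were apart. It stood to the summed globins as 0.114, 0.107 and 0.0900 in sham and as 0.212, 0.295 and 0.309 in I/R, without overlap, 2.61-fold higher in I/R (exact permutation p = 0.1, the smallest possible, adjusted p = 0.3).

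**Figure D3:**
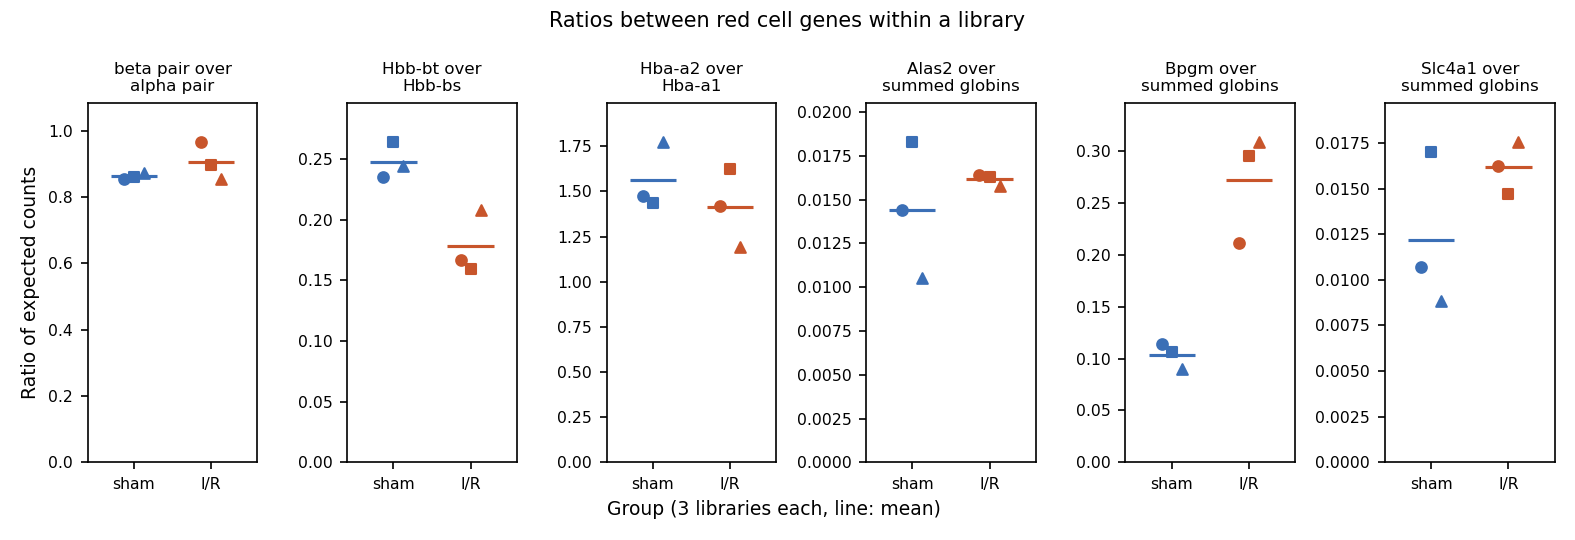
Ratios of expected counts between red cell genes within each library, from left to right the 6 ratios compared, for sham (blue) and I/R (orange), with marker shapes for replicates 1 (circle), 2 (square) and 3 (triangle), a line at each mean and vertical axes that start at 0. Only the ratios of Hbb-bt to Hbb-bs and of Bpgm to the summed globins, among the 6 plotted, have groups that do not overlap.

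The genes were also compared by how they varied inside the groups. Over the 6 libraries the Pearson correlation of log2(CPM + 1) between members ran from 0.749 (Bpgm with Slc4a1) to 0.998 (Hba-a1 with Hbb-bt), a description of 6 points that share the group difference. After the group means were taken out, the 4 globin genes still varied together, with correlations of 0.871 to 0.982 between them. Alas2 and Slc4a1 went with each other (0.928) more than with the globin genes (0.301 to 0.563). These correlations also describe only 6 libraries, and both genes rest on 18 to 70 reads a library. The part of counting noise in them was not tested. Bpgm went with Hba-a2 (0.917), Hbb-bs (0.827), Hbb-bt (0.708) and Hba-a1 (0.621), and hardly with Slc4a1 (0.046) or Alas2 (0.191). Sham 3 had the most globin reads and sham 2 the most Alas2 and Slc4a1 reads among the sham libraries.

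Outside the members, the genes whose pattern over the 6 libraries was most like that of the summed globins were picked among 13520 eligible genes, and 4 of the 5 are given here. They were Mcfd2, a cargo adaptor for secreted coagulation factors (r = 0.996), Pcca, a subunit of mitochondrial propionyl-CoA carboxylase (0.996), Mrgpra2b, a Mas-related receptor of sensory neurons (0.993), and Kptn (0.989). With the group means taken out the correlations were 0.957, 0.974, 0.943 and 0.882. The genes were picked by their correlation over the same 6 libraries, so these values are no separate evidence of likeness. Mrgpra2b stood at 11.1, 10.7 and 12.7 CPM in the sham libraries, against 7.91, 7.22 and 6.11 CPM in the I/R libraries. Its groups did not overlap, and its log2 fold change of -0.70 did not pass the test (adjusted p = 0.054). The other 3 were not called either, with log2 fold changes of -0.36 to -0.22.

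The promoters hold the elements known from erythroid genes to differing extents. GATA factors bind GATA motifs, KLF factors bind CACCC motifs and NF-Y binds CCAAT motifs. RefSeq promoter sequences of build GRCm38.p6 matched 6 of the 7 genes, all but Slc4a1. They are used for their letters only, since the submitters' processing notes name another build, GRCm39. Both strands of the 250 bases before the start were searched for GATA (AGATA or TGATA, then A or G), for CACCC and for CCAAT. Of all 32851 promoters, 26.5% hold such a GATA motif, 52.0% a CACCC and 33.8% a CCAAT motif. A single GATA match each was found for Hba-a1, Hba-a2, Hbb-bs and Alas2 and 0 for Hbb-bt and Bpgm, while CACCC matches numbered 2 for each alpha gene, 1 for Hbb-bs, 3 for Hbb-bt and Alas2 and 0 for Bpgm. CCAAT matches numbered 1 for each alpha gene and for Hbb-bs, 3 for Hbb-bt and Bpgm and 0 for Alas2. Sequences are shown for 1 alpha gene, 1 beta gene and the heme enzyme, 5′ to 3′ on the gene's strand, with matches in capitals. Each stretch ends before the first annotated transcript start, so that matches nearer the gene, such as the CACCC matches of Alas2, lie outside it.
Hba-a2, chr11:32296242-32296488, plus strand: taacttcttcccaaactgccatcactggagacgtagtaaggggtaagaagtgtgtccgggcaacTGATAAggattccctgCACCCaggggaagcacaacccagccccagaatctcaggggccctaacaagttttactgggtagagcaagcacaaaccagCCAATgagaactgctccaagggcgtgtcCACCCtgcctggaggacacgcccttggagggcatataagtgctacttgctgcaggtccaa
Hbb-bt, chr7:103813997-103814173, minus strand: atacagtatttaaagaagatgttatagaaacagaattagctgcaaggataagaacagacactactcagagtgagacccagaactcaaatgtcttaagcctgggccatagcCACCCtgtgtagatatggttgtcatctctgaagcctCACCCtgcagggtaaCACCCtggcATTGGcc
Alas2, chrX:150547167-150547374, plus strand: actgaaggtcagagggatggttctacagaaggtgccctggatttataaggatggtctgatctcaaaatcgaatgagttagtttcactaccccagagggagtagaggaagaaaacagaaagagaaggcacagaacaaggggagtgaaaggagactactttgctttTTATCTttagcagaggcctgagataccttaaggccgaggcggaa
The alpha promoters are the same letters over 297 of 297 bases compared. A match describes these letters and is no measured site.

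Other genes of the globin clusters were at or near 0. Of 8 measured embryonic, theta and pseudogene globins, 6 had 0 counts in every library, Hba-x, Hbb-y and Hbb-bh1 of the early embryo among them, which allows up to 0.137 to 0.154 CPM per library (3 counts, counting error only). The theta globin gene Hbq1b stood at 1.82, 1.25 and 1.65 CPM in the sham libraries, against 1.14, 1.26 and 1.14 CPM in the I/R libraries, with overlap (adjusted p = 0.64). Of the globins of other cells, 0 of 2 tested passed in any of the 3 tools, with 0 at an unadjusted p under 0.05 in edgeR. The log2 fold change of neuroglobin (Ngb) was -0.30 ± 0.16 (adjusted p = 0.58) and that of cytoglobin (Cygb) 0.05 ± 0.10 (adjusted p = 0.89). Myoglobin (Mb), a muscle gene that did not pass the filter, stood at 16.8, 0.05 and 11.5 CPM in the sham libraries, against 0 CPM in all 3 I/R libraries.

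Genes of the red cell membrane and its skeleton gave a mixed picture. Of 23 genes 13 were tested, and edgeR called 1 higher, among 0.722% of all genes called in that direction. DESeq2 called 2 higher, Stom and the glucose transporter gene Slc2a1 (DESeq2 adjusted p = 0.0062, edgeR 0.059), and limma-voom 1. Over all 16346 tested genes DESeq2 called 312 in either direction and limma-voom 177. None of the 13 was called lower by the 3 tools, and 2 were higher and 2 lower at an unadjusted p under 0.05. Their median log2 fold change was -0.02. Stom, the band 7 protein stomatin, stood at 27.4, 27.6 and 27.6 CPM in the sham libraries, against 42.6, 46.1 and 47.6 CPM in the I/R libraries and rose by 0.72 ± 0.09 (adjusted p = 0.0047), the opposite direction to the globins. Ank1, the ankyrin that ties band 3 to the skeleton, is also a gene of neurons and stood at 538 to 786 CPM in sham and 542 to 686 CPM in I/R.

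Red cell genes too low to be tested were read as counts. Klf1, the erythroid transcription factor, had 2, 7 and 4 counts in the sham libraries, against 2, 0 and 2 in the I/R libraries, a ratio of sham to I/R of 3.44 with a 95% counting interval of 1.06 to 14.5. Hemgn, a nuclear protein of erythroid cells, had 15 counts in sham and 4 in I/R. Going the other way, Car1, the erythroid carbonic anhydrase, had 13 counts in sham and 32 in I/R (ratio 0.431, 0.207 to 0.843) and Trim10 had 18 and 36. Of the 19 such genes in 3 lists, 15 had more counts per library size in sham and 4 had more in I/R, and the counting interval lay above a ratio of 1 for 4 and below it for 2. These intervals leave out the variation between mice.

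Ahsp, which encodes the chaperone of free alpha globin in erythroid cells, was ordered otherwise than the alpha globin genes. It stood at 0.786, 1.25 and 2.31 CPM in the sham libraries, against 2.47, 0.775 and 0.365 CPM in the I/R libraries. The groups overlapped, I/R 1 being the highest of all 6 libraries (log2 fold change -0.28, adjusted p = 0.90). It belongs to the list of reticulocyte and red cell cytosol genes, of which 17 of 20 were tested. None of the 17 passed in edgeR, DESeq2 or limma-voom, 1 had an unadjusted p under 0.05, and the median was -0.06. That 1 gene, Tent5c, a poly(A) polymerase, stood at 5.11 to 5.76 CPM in sham and 2.77 to 4.11 CPM in I/R, with a difference of -0.68 ± 0.18 on the log2 scale (adjusted p = 0.15).

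Heme synthesis outside the erythroid enzyme had no called gene. Of 14 genes, all tested, 0 passed in edgeR, DESeq2 or limma-voom, 1 higher and 1 lower had an unadjusted p under 0.05, and the median log2 fold change was -0.01. Alas1, the form of 5-aminolevulinate synthase used by all other cells, stood at 47.7 to 56.0 CPM in sham and 52.8 to 56.8 CPM in I/R (0.05, adjusted p = 0.89), and Fech, which inserts the iron, at 62.0 to 68.0 and 66.4 to 71.8 CPM. Around Bpgm, 10 of 11 genes of lower glycolysis were tested and 0 were called by edgeR or limma-voom. DESeq2 called the muscle isoform Pgam2 lower (adjusted p = 0.0278), beside 0.875% of all tested genes. It was also the 1 gene whose unadjusted edgeR p was under 0.05. Pgam2 ran from 0.80 CPM in sham 2 to 5.84 CPM in sham 1, the libraries with the least and the most skeletal muscle RNA of the sham group. Among 7 tested erythroid transcription factors and receptors of 13, 0 were called by the 3 tools and 0 had an unadjusted p under 0.05, and Tfrc, the transferrin receptor, stood at 86.5 to 128 CPM in sham and 117 to 138 CPM in I/R.

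Among genes that clear hemoglobin and heme, 1 of 9 tested was called higher, the direction opposite to the globins. Over all tested genes edgeR called 0.722% higher. Cd163, the macrophage receptor that takes up hemoglobin bound to haptoglobin, stood at 3.29, 2.55 and 3.29 CPM in the sham libraries, against 7.51, 5.04 and 5.89 CPM in the I/R libraries and rose by 1.01 ± 0.20 (adjusted p = 0.046; 0.064 in limma-voom). Hmox1, heme oxygenase, stood at 28.9 to 34.9 CPM in sham and 27.3 to 30.1 CPM in I/R (adjusted p = 0.64). The 10 macrophage markers summed to 52.2 to 54.6 CPM in sham and 60.9 to 64.8 CPM in I/R, with 0 called by the 3 tools and 3 higher at an unadjusted p under 0.05, and their part in the difference of Cd163 was not tested.

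**Figure D4:**
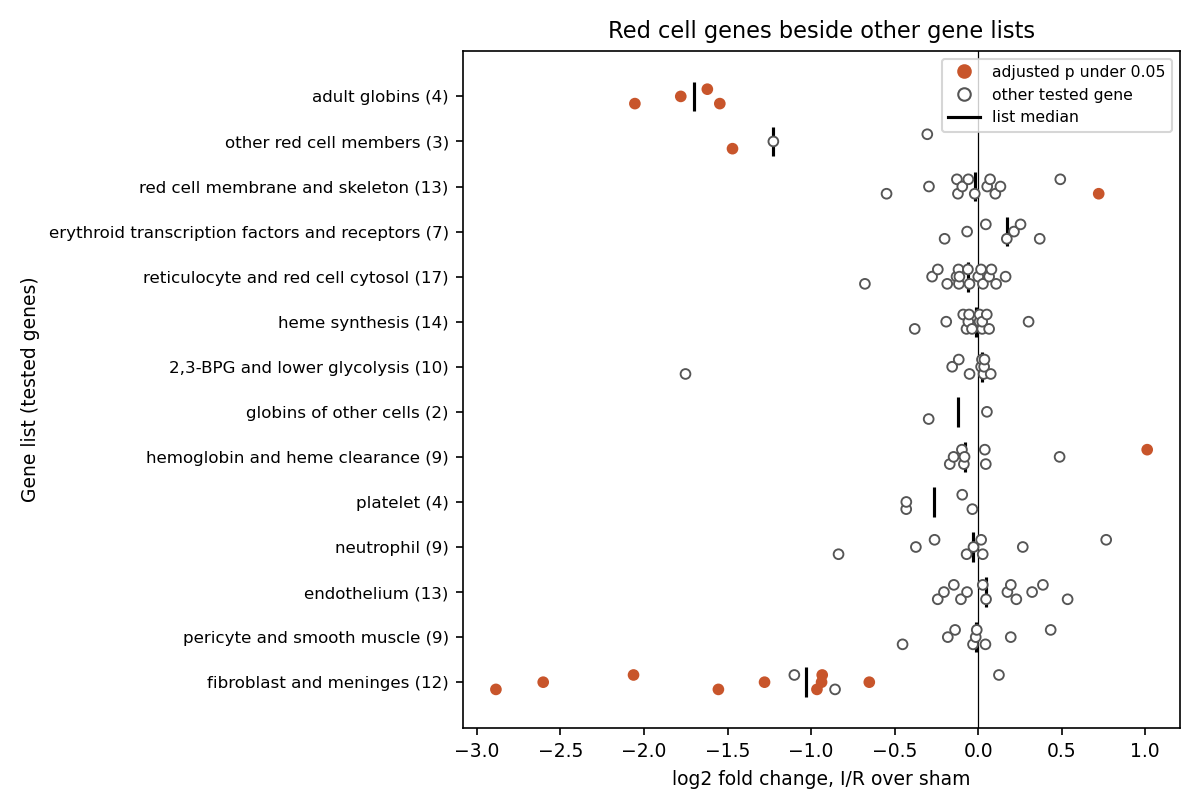
Log2 fold change (I/R over sham) of every tested gene in 14 gene lists, the number tested in brackets, with genes of an adjusted p under 0.05 filled and a bar at each list's median. The globin genes lie at -2.05 to -1.55, the other red cell members have a median of -1.23 and the meningeal list one of -1.03, and the other lists plotted have medians between -0.26 and 0.17.

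Markers of other blood cells and of vessels were at the following levels. The 12 platelet genes summed to 9.72 to 12.3 CPM in sham and 6.75 to 13.99 CPM in I/R. The 14 neutrophil genes summed to 17.8 to 23.7 CPM in sham and 15.8 to 20.9 CPM in I/R, and the 11 T and NK cell genes to 3.10 to 3.70 and 3.86 to 4.75 CPM. Of the 15 genes tested in these 3 lists none passed in any of the 3 tools, and 1 neutrophil gene, Camp, had an unadjusted p under 0.05. Of 11 measured B cell genes 2 were tested, and 1 was called lower, beside 0.428% of all tested genes. That gene, Ighm, the immunoglobulin M heavy chain, stood at 21.2 to 25.9 CPM in sham and 12.6 to 15.97 CPM in I/R. Its log2 fold change was -0.73 ± 0.13 (edgeR adjusted p = 0.027). The other tested gene, Cd79a, had a log2 fold change of 0.22 (edgeR adjusted p = 0.88). The B cell surface gene Ms4a1 had 3 counts over the sham and 3 over the I/R libraries. The 13 endothelial genes summed to 261 to 281 CPM in sham and 283 to 299 CPM in I/R and the 9 pericyte and smooth muscle genes to 305 to 324 and 278 to 319 CPM. Of these 22 vessel genes 0 were called by the 3 tools, and 4 higher and 1 lower had an unadjusted p under 0.05. The 8 proliferation genes summed to 10.8 to 12.2 CPM in sham and 11.3 to 12.2 CPM in I/R, with 0 called by the 3 tools and 1 lower at an unadjusted p under 0.05. The 9 hypoxia and erythropoietin genes summed to 289 to 297 and 316 to 337 CPM, with 1 called higher by DESeq2, 0 by edgeR and limma-voom, and 1 higher at an unadjusted p under 0.05. In both cases the gene was Slc2a1, which the red cell membrane list also holds. DESeq2 called 312 of the 16346 tested genes in either direction.

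Tissue next to the ganglion moved with the globins in part. The 12 skeletal muscle genes summed to 590, 15.3 and 299 CPM in the sham libraries, against 5.29, 13.2 and 8.85 CPM in the I/R libraries. Of the 10 tested, edgeR called 1 lower, DESeq2 10 and limma-voom 0, beside 0.428%, 0.875% and 0.385% of all tested genes. Sham 2, whose muscle sum was far below that of the other sham libraries and above the 3 I/R values, had 191 CPM of summed globins, between the 179 CPM of sham 1 and the 268 CPM of sham 3, and above the 52.0 to 85.3 CPM of I/R. With sham 2 alone against the 3 I/R libraries, a fit that assumes the lone sham library to vary like the I/R libraries, Hba-a1 (adjusted p = 0.045) and Hbb-bt (0.031) kept their calls and Hba-a2 (0.0716), Hbb-bs (0.154) and Alas2 (0.223) lost them, with log2 fold changes of -1.99 to -1.39 over the 5 genes. The fibroblast and meningeal list summed to 742, 903 and 856 CPM in the sham libraries, against 398, 466 and 417 CPM in the I/R libraries. Of its 12 genes 9 were called lower, beside 0.428% of all tested genes. Like the members, the lists were chosen with earlier results of these data known. Their counts are therefore no independent evidence of direction. The part of the fibroblast and meningeal list in the globin difference was not tested. All 11 sensory neuron markers were present, summing to 11252 to 12921 CPM in sham and 12150 to 13338 CPM in I/R, and so were all 9 glial markers, at 7235 to 7504 and 6078 to 6844 CPM. Of the 9 glial markers 1 was called lower, Fabp7 (log2 fold change -0.99, adjusted p = 0.019), beside 0.428% of all tested genes.

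**Figure D5:**
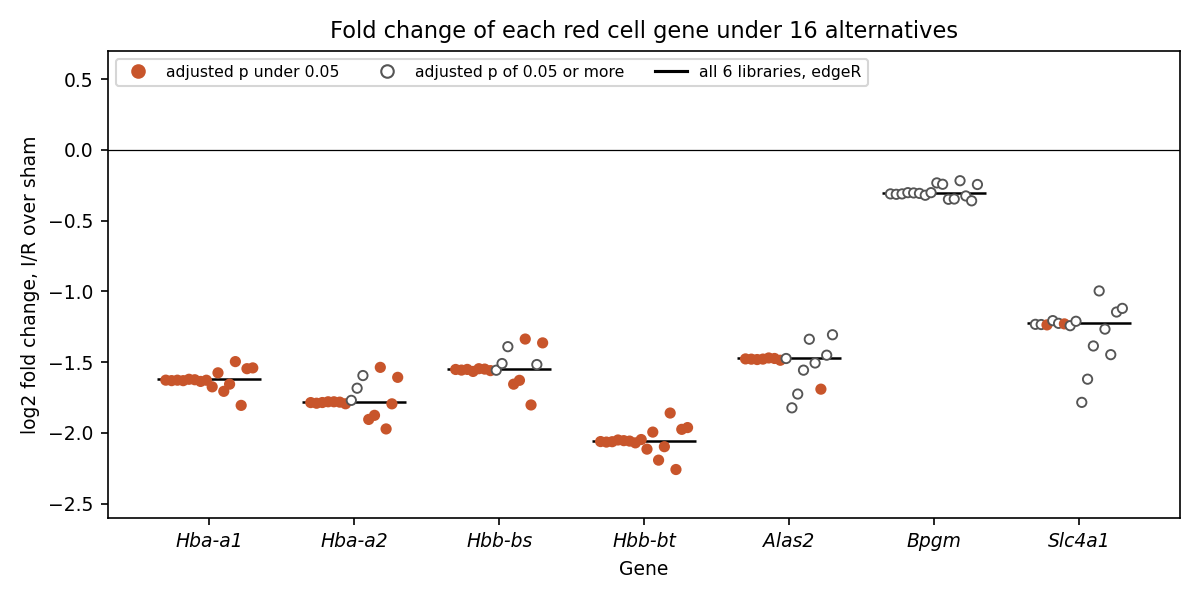
Log2 fold change (I/R over sham) of each red cell gene under 16 alternative settings (points, filled where the adjusted p was under 0.05), from other normalizations, tools and filters on the left of each cluster to fits that leave out 1 library on the right, with a line at the value from all 6 libraries. Hba-a1 and Hbb-bt stayed called in all 16, and every point of the 7 genes lies below 0.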

How the data were processed

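Total RNA of the ganglia was taken up in TRIzol and sequenced as stranded Illumina mRNA libraries, per the labels' protocols. The authors deposited 1 table of expected counts (estimated reads per gene, not scaled to library size) together with a gene length and group means; fastp, HISAT2, StringTie and GRCm39 are named, without roles, per the submitters' processing notes. How reads were counted, and how shared reads were divided, is not given in the sources used here. Library totals were 19092650 to 22010227. Counts were rounded and tested with edgeR 4.0.16 (quasi-likelihood, TMM, filterByExpr, 16346 genes kept, Benjamini-Hochberg over all of them, call at an adjusted p under 0.05) in R 4.3.3, after a check on simulated counts. The globin pairs were also summed and refitted in the whole table. CPM use TMM-scaled library sizes. SE were derived from the F statistic. DESeq2 1.42.0 and limma 3.58.1 (voom) were alternatives, beside other normalizations, filters, covariates and leaving out each library. Members and the 23 gene lists were chosen with earlier results of these data known. Named genes are taken from the 7 members and from up to 4 called genes of smallest p per list or else up to 2. They also include the 5 genes most alike in pattern, among those of at least 1 CPM with a symbol that is not a predicted gene. Hba-x, Hbb-y, Hbb-bh1, Mb, Ank1, Klf1, Hemgn, Car1, Trim10, Ahsp, Alas1, Fech, Hmox1, Ms4a1 and Cd79a were added after their values were seen. A few of the genes named by these rules are not reported here. Libraries of a group differed by more than sampling noise (chi-square per degree of freedom 4.05 to 27.9). P-values measure the spread between the mice sequenced. Counting limits (3 counts) cover counting error only, as reads are not independent molecules.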

Additional observations from a re-analysis of the deposited data

How the results depend on the processing

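All 7 genes and both summed pairs lay lower in I/R under all 16 alternatives run, and Hba-a1 and Hbb-bt were called in all 16. The 188 genes called in all became 312 in DESeq2, 494 without the filter on low counts, 63 with the replicate block, 27 with the skeletal muscle level as covariate and 32 with sham 2 alone, and 87 to 181 with 1 library left out. Of the members, 5 were called, beside 0.428% of all tested genes called lower. With the muscle covariate 2 were called, beside 0.0489%. With 1 library left out 3 to 5 were called (3 without I/R 2), beside 0.144% to 0.51%. With the replicate block 2 were called, beside the 63 genes called in either direction. Both summed pairs were called, against 0 with the block, 0 with the muscle covariate, 0 with sham 2 alone and 1 to 2 with 1 library left out. In those 3 fits the log2 fold changes of the pairs were -1.71 to -1.50 and their adjusted p 0.0513 to 0.176; each has fewer residual degrees of freedom, and the cause was not tested. The replicate numbers do not pair the mice: deviations of same-numbered libraries had correlations of -0.165, 0.24 and -0.181 over genes, so the replicate block is a fit with a shared number only. Slc4a1 was called without the filter on low counts (adjusted p = 0.0098). The log2 ratio of Alas2 to the globins differed by 0.20 between the groups, which went from -0.0076 (without sham 3, reversed) to 0.39 (without sham 2) when 1 library was left out. Alas2 and Slc4a1 rest on 18 to 70 reads a library.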
